A study of Mus musculus with 19 samples.

Results

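The genes described here are 36 genes of the unfolded protein response and the integrated stress response in mouse liver. They were chosen by symbol as genes of these pathways, and the symbols were matched to the deposited counts through the gene identifiers in the authors' own comparison tables. All 36 had a value in every library (Phgdh was at 0 in 1), out of 14576 rows in the counts table, of which 14319 held a value in all libraries. Of these, 12493 genes passed the expression filter and were tested, among them 35 of the 36. Phgdh, which opens serine synthesis, stayed under the filter.

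The study sequenced poly-A RNA from the livers of 19 adult mice, 9 of which were built so that light could excite their hypothalamic neurons that make agouti-related peptide (AgRP), known to drive hunger. Every mouse carried a Cre-dependent channelrhodopsin-2 (ROSA26 ChR2 fl/wt) and had an optic fibre above the arcuate nucleus. Mice called tg were also AgRP-IRES-Cre tg/wt, with the Cre driver in AgRP neurons, and mice called wt were AgRP-IRES-Cre wt/wt, without it. No food was given while all mice received 473 nm light at 20 Hz, in pulses of 10 ms and in cycles of 3 s with light and 1 s in the dark. All livers were taken at ZT7.5 (zeitgeber time, hours after lights on). Light began at ZT5.5 in the 2 h groups (5 wt and 4 tg mice) and at ZT3.5 in the 4 h groups (5 wt and 5 tg mice), and the labels give the diet as random fed. No tg mouse without light was analysed here, so the driver and the excitation of the neurons cannot be told apart. In pieces of whole liver, fewer cells of a type and less RNA per cell cannot be told apart either.

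The endoplasmic reticulum (ER) folds the proteins that a cell secretes or places in membranes, and hepatocytes, which secrete most plasma proteins, rely on it heavily. When unfolded proteins collect there, the sensors IRE1 (encoded by Ern1), PERK (Eif2ak3) and ATF6 (Atf6) signal to the nucleus. IRE1 splices the mRNA of Xbp1 into a form that encodes an active transcription factor, and cleaved ATF6 and spliced XBP1 raise chaperones and ER-associated degradation, which returns misfolded proteins to the cytosol. PERK phosphorylates eIF2 alpha, which lowers general translation and lets ATF4 be made. Other eIF2 kinases that sense amino acid shortage, haem shortage or double-stranded RNA converge on the same step, and that common branch is the integrated stress response. Counts per gene do not separate spliced from unspliced Xbp1 mRNA, and neither phosphorylation, nor cleavage, nor protein was measured.

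Windows from 250 bases before to 50 bases after the start site were available from RefSeq (build GRCm38.p6) for 31 of the 36 genes. They were searched on both strands for the ER stress element (ERSE: CCAAT, 9 bases of any kind, then CCACG), for ERSE-II (ATTGG, 1 base of any kind, then CCACG), for the unfolded protein response element (UPRE, TGACGTGG) and for the core of the amino acid response element (CARE, TGATGNAA). No allowance was made for mismatches, and the ERSE and ERSE-II letters share CCACG. The 12 matches to ERSE or ERSE-II lay in 11 genes and are shown because these are the elements through which ATF6 and XBP1 are known to act. They read as follows in the direction of the motif, with the fixed letters in capitals and the free positions in lower case.
Hspa5 (ERSE, chr2:34772025-34772043): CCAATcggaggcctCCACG
Hsp90b1 (ERSE, chr10:86705638-86705656): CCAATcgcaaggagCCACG
Hsp90b1 (ERSE, chr10:86705533-86705551): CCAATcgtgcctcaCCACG
Pdia6 (ERSE, chr12:17266491-17266509): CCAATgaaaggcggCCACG
Calr (ERSE, chr8:84847075-84847093): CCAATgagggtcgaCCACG
Canx (ERSE, chr11:50325800-50325818): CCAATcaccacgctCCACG
Dnajb11 (ERSE-II, chr16:22857852-22857862): ATTGGcCCACG
Dnajc3 (ERSE, chr14:118937827-118937845): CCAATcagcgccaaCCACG
Creld2 (ERSE, chr15:88819520-88819538): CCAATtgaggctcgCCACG
Herpud1 (ERSE-II, chr8:94386377-94386387): ATTGGgCCACG
Syvn1 (ERSE, chr19:6046532-6046550): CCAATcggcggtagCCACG
Derl3 (ERSE, chr10:75893242-75893260): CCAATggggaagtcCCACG
Hsp90b1 held an ERSE on each strand. ERSE was found in 9 of the 31 genes and in 0.137% of 27025 genes with a window. ERSE-II was found in 2 of the 31 and in 0.0444% of all. CARE was found in 4 of the 31 (Herpud1, Trib3, Asns and Chac1) and in 4.51% of all, and UPRE in 0 of the 31 and in 0.714% of all. A match describes letters only and shows no binding.

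The windows of Herpud1 and Hspa5 are printed whole, because Herpud1 rose at both durations and held both kinds of element, and Hspa5 encodes the chaperone BiP. Motif letters are in capitals.
Herpud1 (chr8:94386179-94386478, plus strand): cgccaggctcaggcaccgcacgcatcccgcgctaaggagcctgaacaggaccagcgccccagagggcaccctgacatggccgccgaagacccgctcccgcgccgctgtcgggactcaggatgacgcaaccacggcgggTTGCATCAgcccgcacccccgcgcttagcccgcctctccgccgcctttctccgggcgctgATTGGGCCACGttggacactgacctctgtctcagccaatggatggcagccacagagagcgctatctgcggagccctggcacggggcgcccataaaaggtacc
Hspa5 (chr2:34771840-34772139, plus strand): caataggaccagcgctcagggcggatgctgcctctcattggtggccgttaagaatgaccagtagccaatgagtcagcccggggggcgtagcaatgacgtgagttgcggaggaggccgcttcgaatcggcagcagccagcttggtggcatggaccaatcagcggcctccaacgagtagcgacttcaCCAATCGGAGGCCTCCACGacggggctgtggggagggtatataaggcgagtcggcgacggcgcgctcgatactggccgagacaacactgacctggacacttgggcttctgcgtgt
In Herpud1 the ERSE-II (ATTGGGCCACG) began 52 bases before the start site on the coding strand, and the CARE lay farther upstream on the other strand, where it is written in reverse as TTGCATCA. The ERSE of Hspa5 began 65 bases before its start site. In Asns the CARE began 23 bases before the start site. The windows of Xbp1 and Ern1 held none of the motifs.

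**Figure D1:**
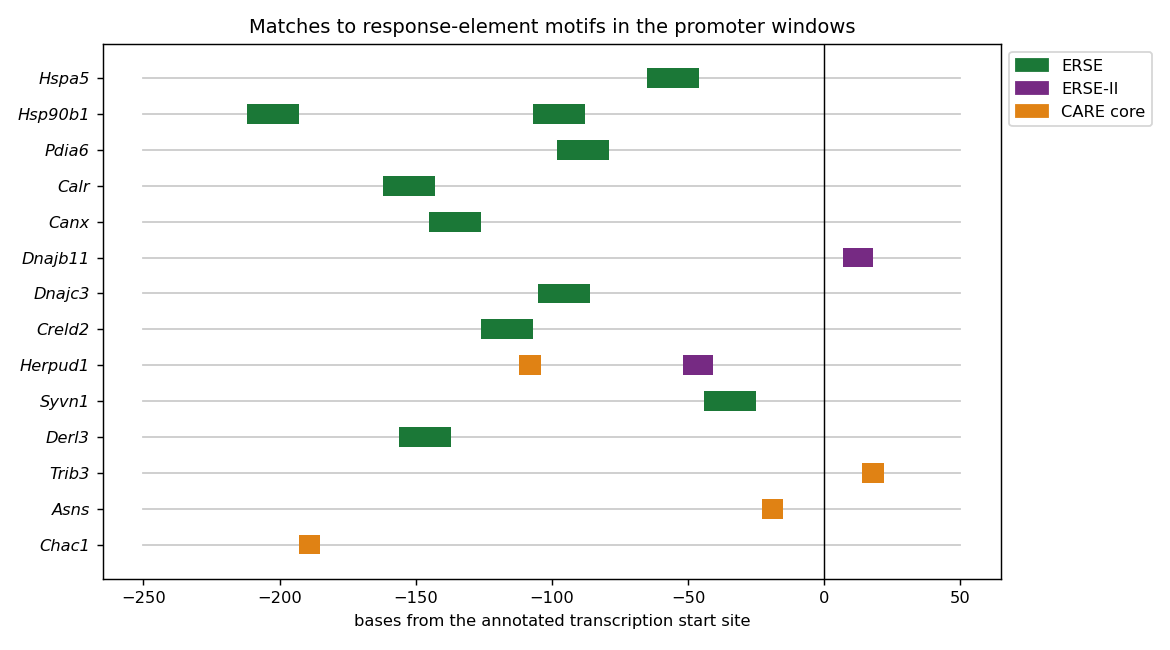
Positions of exact motif matches in the promoter windows, in bases from the RefSeq start site (x axis), for genes with a match (y axis). The colour of each bar gives the motif. ERSE was found in 9 of 31 genes, ERSE-II in 2 and CARE in 4.

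Total counts per library ran from 21474255 to 32721828. Levels are in CPM, counts divided by TMM-scaled library sizes and set to a common total. The summed CPM of the hepatocyte markers (7 of 8 had counts) was 74530 to 112400 per library, and Alb was among the measured markers. Summed markers of macrophages, B and plasma cells, T and NK cells, sinusoidal endothelium, stellate cells, bile duct cells, neutrophils and red cells overlapped between all groups. At 2 h the single bile duct marker Sox9 did not overlap (2.75 to 5.64 CPM in wt, 1.23 to 2.465 CPM in tg). Krt19, Krt7, Epcam and Spp1 overlapped, and 6% of all tested genes did not. B and plasma cell markers, whose cells also express ER chaperones strongly, summed to between 1.77 and 10.4 CPM in all libraries. Of pancreatic acinar markers 1 of 6 had counts, at up to 1.62 CPM. Of adipocyte markers 1 of 3 had counts (Cidec), at 2.27 to 6.82 CPM in wt and 2.72 to 13.8 CPM in tg at 4 h. Adipoq and Plin1 had none, and which cells the Cidec RNA came from was not tested. Mitochondrial transcripts took 7.75% of counts in tg 2 h replicate 1 and 7.83% in wt 4 h replicate 1, against 10.0% to 12.9% in the other 17 libraries. Both, with tg 4 h replicate 3, were described as standing apart in an earlier analysis of these data, and calls lost or gained without the 3 are named beside the result.

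Divided by exonic length in the GENCODE M21 annotation, the mean level over all libraries covered a wide range among the 36 genes. Herpud1, which helps to assemble the degradation complex at the ER membrane, was highest at 224.4 CPM per kb. It was followed on the same per-length scale by Calr at 190.7, Hsp90b1 at 147.3, Hspa5 at 110.0 and Pdia3 at 101.6, which all encode chaperones or folding enzymes. The mean of Herpud1 included the higher tg livers, at 668 and 758 CPM at 2 h and 4 h, beside 341 and 356 CPM in wt. Calr stood at 553 and 587 CPM in tg and 484 and 573 CPM in wt. The order within wt livers alone was not ranked. The sensors were lower, with Atf6 at 8.99, Ern1 at 4.77 and Eif2ak3 at 2.22 CPM per kb. Ddit3, encoding the transcription factor CHOP, stood at 1.85 CPM per kb. The lowest were Derl3, Mthfd2, Psat1, Phgdh and Aldh1l2, all at or below 0.299 CPM per kb.

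Tested genes called in at least 1 of 6 comparisons were Hspa5, Hsp90b1, Dnajc3, Xbp1, Atf6, Ern1, Herpud1, Derl2, Ppp1r15a, Trib3 and Asns. After 2 h of light, Herpud1 and Ppp1r15a were higher and Ern1 was lower in tg than in wt livers, by edgeR's quasi-likelihood test with an adjusted p (Benjamini-Hochberg over all tested genes) under 0.05. After 4 h, Herpud1, Atf6 and Asns were higher and Ern1, Xbp1, Derl2 and Trib3 were lower. These are 3 of 35 genes at 2 h, 2 higher and 1 lower, where 2.16% of all tested genes were called, 1.14% higher and 1.02% lower. At 4 h they are 7 of 35, 3 higher and 4 lower, where 11.4% were called, 5.75% higher and 5.64% lower. The median log2 fold change of the 35 was 0.17 at 2 h and 0.02 at 4 h, beside 0.007 and -0.01 over all tested genes. Ern1 and Xbp1, which encode IRE1 and its substrate, were thus both lower in tg at 4 h, and Herpud1 was higher at both durations. By edgeR no chaperone was called at either duration alone, while DESeq2 called Hspa5, Hsp90b1 and Dnajc3 higher at 2 h.

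**Figure D2:**
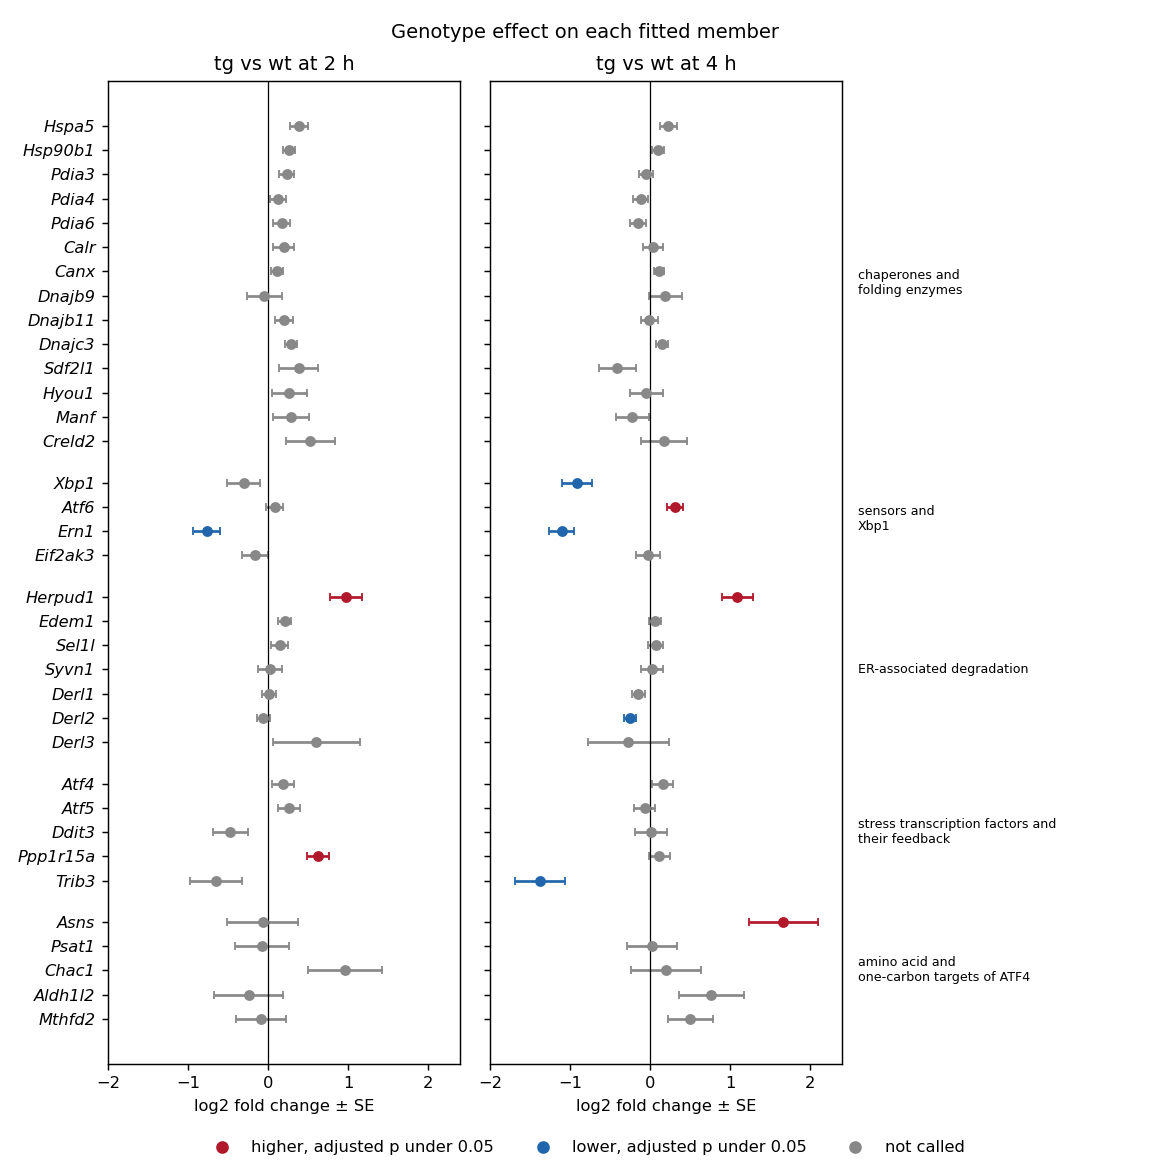
Log2 fold change of tg against wt (x axis) with its standard error for each of the 35 tested genes (y axis, grouped by role), at 2 h and at 4 h; colour marks the genes called by edgeR at an adjusted p under 0.05. Ern1 lies to the left and Herpud1 to the right at both durations, and 13 of the 14 chaperones lie to the right of 0 at 2 h and 7 of 14 at 4 h, none of them called.

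Among the sensors, Ern1 (chr11:106394650-106487852, minus strand, GRCm38) measured 68.6, 67.1, 42.0, 44.7 and 60.3 CPM in the wt livers at 2 h and 34.2, 31.2, 32.1 and 35.1 CPM in the tg livers. At 4 h it measured 56.7, 40.5, 44.3, 34.7 and 45.7 CPM in wt and 21.5, 19.9, 27.0, 15.4 and 19.6 CPM in tg. Every tg liver lay below every wt liver of the same duration, and the 4 h tg livers were the lowest of all. Ern1 fell at 2 h, with a log2 change of -0.77 ± 0.16 (SE), from 56.5 ± 12.4 (SD, n = 5) to 33.1 ± 1.82 CPM (SD, n = 4), with an adjusted p of 0.0135 in edgeR's quasi-likelihood test. It fell at 4 h, with a log2 change of -1.10 ± 0.16, from 44.4 ± 8.07 to 20.7 ± 4.16 CPM (SD, n = 5 each), with an adjusted p of 0.000163 in the same edgeR test. Without tg 2 h replicate 2 the 2 h change was -0.74 with an adjusted p of 0.0508, and the 4 h call held without any 1 library.

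Xbp1 (chr11:5520659-5525893, plus strand, GRCm38), whose mRNA IRE1 splices, measured 227, 200.2, 255, 235 and 194 CPM in wt and 225, 114, 186 and 192 CPM in tg at 2 h. Those groups overlapped, and the log2 change of -0.31 ± 0.20 did not pass (adjusted p = 0.639, edgeR). At 4 h it measured 168, 348, 358, 256 and 218 CPM in wt and 174, 135, 123, 129.7 and 155 CPM in tg. Only wt replicate 1 lay within the range of the tg livers. Xbp1 fell at 4 h from 269.7 ± 82.5 to 143 ± 20.7 CPM (SD, n = 5 each), a log2 change of -0.91 ± 0.19 (adjusted p = 0.00408, edgeR), and the call held without any 1 library and without the 3 libraries together.

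Atf6 and Eif2ak3 encode the other sensors. Atf6 measured 90.3, 75.9, 61.6, 73.1 and 86.9 CPM in wt and 100.7, 98.9, 93.9, 87.8 and 101.8 CPM in tg at 4 h. The groups touched, since wt replicate 1 lay above tg replicate 4. Its log2 change was 0.32 ± 0.10 (adjusted p = 0.0426, edgeR), and the call was lost in 10 of 19 fits that left out 1 library, with an adjusted p of up to 0.127 (without wt 4 h replicate 3). It was also lost with library totals as the scale (0.212), with upper-quartile scaling (0.0580), in a fit to only the groups compared (0.0633) and with no filter on low counts (0.0506). At 2 h its log2 change was 0.08 ± 0.10. Eif2ak3 did not pass at 2 h (-0.16 ± 0.16) or at 4 h (-0.03 ± 0.15), with group means between 12.4 and 13.9 CPM.

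**Figure D3:**
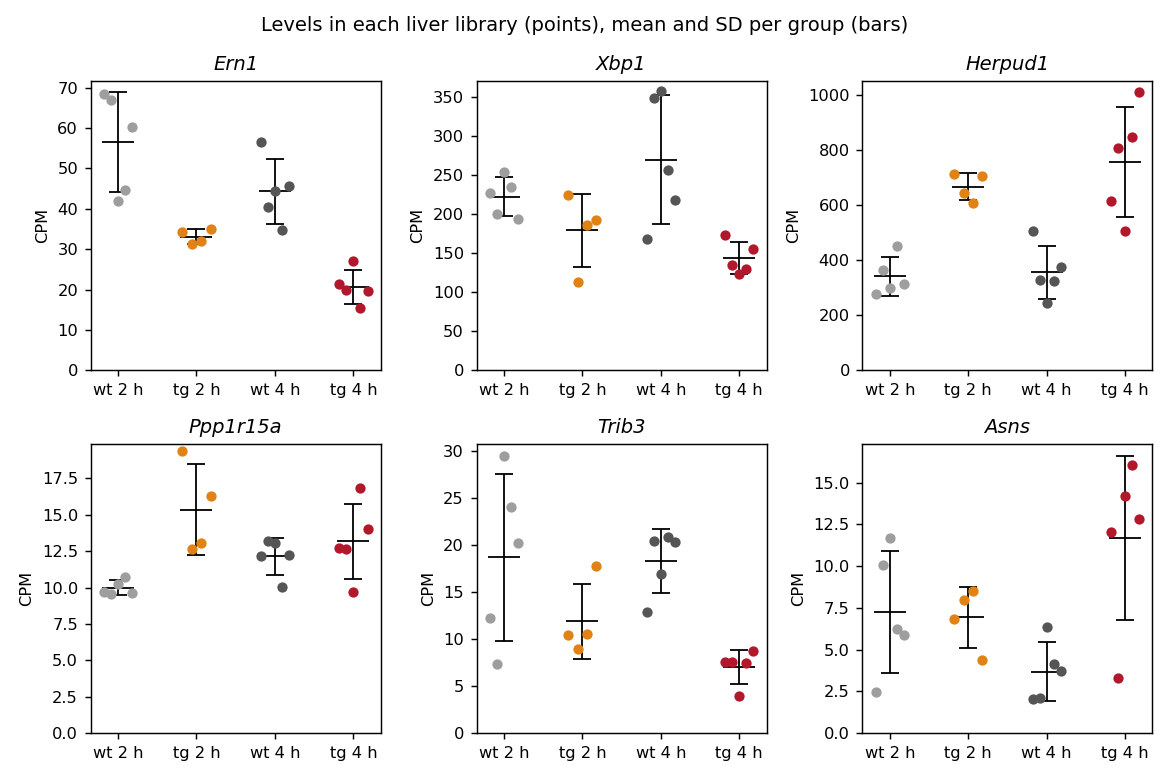
CPM (y axis, linear, from 0) of Ern1, Xbp1, Herpud1, Ppp1r15a, Trib3 and Asns in every library (points), by genotype and duration (x axis), with the group mean and SD. The tg points of Ern1 lie below and those of Herpud1 mostly above the wt points at both durations, and at 4 h the Trib3 points of the genotypes are apart, while 1 tg point of Asns lies among the wt points.

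Herpud1 (chr8:94386438-94395377, plus strand, GRCm38) measured 279, 363, 298, 454 and 313 CPM in wt and 713, 643, 609 and 706 CPM in tg at 2 h. At 4 h it measured 507, 329.6, 244, 323 and 375 CPM in wt and 616, 806, 506, 849 and 1013 CPM in tg. The groups did not overlap at 2 h, and at 4 h only wt replicate 1 reached the lowest tg liver. Herpud1 rose by a log2 change of 0.97 ± 0.20 at 2 h (adjusted p = 0.0099, edgeR) and by 1.09 ± 0.19 at 4 h (adjusted p = 0.000994, edgeR), and neither call was lost without any 1 library. The levels were 341 ± 70.2 against 668 ± 49.97 CPM at 2 h and 356 ± 96.9 against 758 ± 200 CPM at 4 h (SD).

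Of the other ER-associated degradation genes, only Derl2 was called, and only at 4 h. Derl2, a member of the derlin family of the retrotranslocation channel, measured 92.8, 97.9, 88.1, 88.7 and 81.3 CPM in wt and 76.5, 75.4, 80.8, 75.9 and 69.4 CPM in tg at 4 h. The groups did not overlap, with a narrow gap between wt replicate 5 and tg replicate 3. Its log2 change was -0.25 ± 0.07 (adjusted p = 0.0331, edgeR), and the call was lost on leaving out any 1 of 8 of the 10 livers at 4 h. The highest adjusted p of these edgeR fits was 0.0993, without wt 4 h replicate 2. The call was also lost without the 3 libraries together (0.0504) and in a fit to only the groups compared (0.0509). The ubiquitin ligase Syvn1 and its partner Sel1l had log2 changes of 0.02 and 0.14 at 2 h and of 0.02 and 0.07 at 4 h, and neither passed. Edem1, which draws misfolded glycoproteins towards degradation, had a log2 change of 0.20 at 2 h and 0.06 at 4 h, without a call, although its groups did not overlap at 2 h. Log2 changes at 2 h and 4 h were 0.01 and -0.15 for Derl1 and 0.60 and -0.27 for Derl3, whose mean level was 0.597 CPM.

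Chaperones and folding enzymes form the largest group, with 14 genes, all tested. At 2 h 13 of the 14 had positive log2 changes, with a median of 0.24 and a range from -0.05 (Dnajb9) to 0.52 (Creld2), both accessory folding factors, while 51.9% of all tested genes were positive. At 4 h 7 of 14 were positive, with a median of 0.01 and a range from -0.41 (Sdf2l1) to 0.23 (Hspa5), where 48.2% of all tested genes were positive. None of the 14 was called by edgeR at either duration, and 4 at 2 h (28.6%) and 1 at 4 h (7.14%) had an unadjusted p under 0.05, beside 11.7% and 25.5% of all tested genes. Log2 changes at 2 h and 4 h were 0.19 and 0.03 for Calr and 0.11 and 0.11 for Canx, lectin chaperones of glycoproteins. They were 0.23 and -0.05 for Pdia3, 0.12 and -0.12 for Pdia4 and 0.17 and -0.15 for Pdia6, which form disulfide bonds. They were 0.27 and -0.05 for Hyou1, 0.28 and -0.22 for Manf and 0.19 and -0.01 for Dnajb11, which work with BiP. DESeq2 called Hspa5, Hsp90b1 and Dnajc3 at 2 h, and limma-voom called none of the chaperones at 2 h.

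Hspa5 encodes BiP, the main ER chaperone of the HSP70 family, which also holds the sensors inactive. It measured 343, 331, 331, 422 and 365 CPM in wt and 492, 421, 469 and 495 CPM in tg at 2 h, and 464, 422, 529.5, 512 and 455 CPM in wt and 549, 517, 465, 562 and 698 CPM in tg at 4 h. At 2 h a single wt liver, replicate 4, reached the lowest tg liver, and at 4 h the groups overlapped widely. The log2 change was 0.39 ± 0.11 at 2 h (adjusted p = 0.0825, edgeR) and 0.23 ± 0.11 at 4 h (adjusted p = 0.176, edgeR). The 2 h value passed in DESeq2 (adjusted p = 0.0181).

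The mean of the 2 h and 4 h effects, which uses all 19 livers, called 5 of the 35 genes higher and 3 lower, beside 14.2% of all tested genes, 6.98% higher and 7.22% lower. Those higher were Herpud1 (1.03 ± 0.14), Ppp1r15a (0.37 ± 0.10), Hspa5 (0.31 ± 0.08, adjusted p = 0.00927 by edgeR), Dnajc3 (0.22 ± 0.05, adjusted p = 0.00905 by edgeR) and Hsp90b1 (0.18 ± 0.05, adjusted p = 0.0258 by edgeR). Hsp90b1 encodes GRP94, the ER member of the HSP90 family, and Dnajc3 encodes P58IPK, an ER co-chaperone. Hsp90b1 measured 488 to 535 CPM in wt and 566 to 686 CPM in tg at 2 h, and 569 to 640.3 CPM in wt and 622 to 678 CPM in tg at 4 h. Dnajc3 measured 153 to 171 CPM in wt and 182 to 217 CPM in tg at 2 h, and 164 to 189 CPM in wt and 182 to 217 CPM in tg at 4 h. Both therefore had groups apart at 2 h and overlapping at 4 h. The call of Hsp90b1 was lost without tg 2 h replicate 1 (adjusted p = 0.0557), without wt 2 h replicate 2 (0.0512), without the 3 libraries (0.0579) and with upper-quartile scaling (0.0551). With library totals alone as the scale, the calls of Hsp90b1 (0.231), Dnajc3 (0.113) and Ppp1r15a (0.0511) were all lost. Atf6 had a mean effect of 0.20 ± 0.07 (adjusted p = 0.0738, edgeR), which was called higher without the 3 libraries. Those lower were Ern1 (-0.94 ± 0.11), Xbp1 (-0.61 ± 0.14) and Trib3 (-1.01 ± 0.23).

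**Figure D4:**
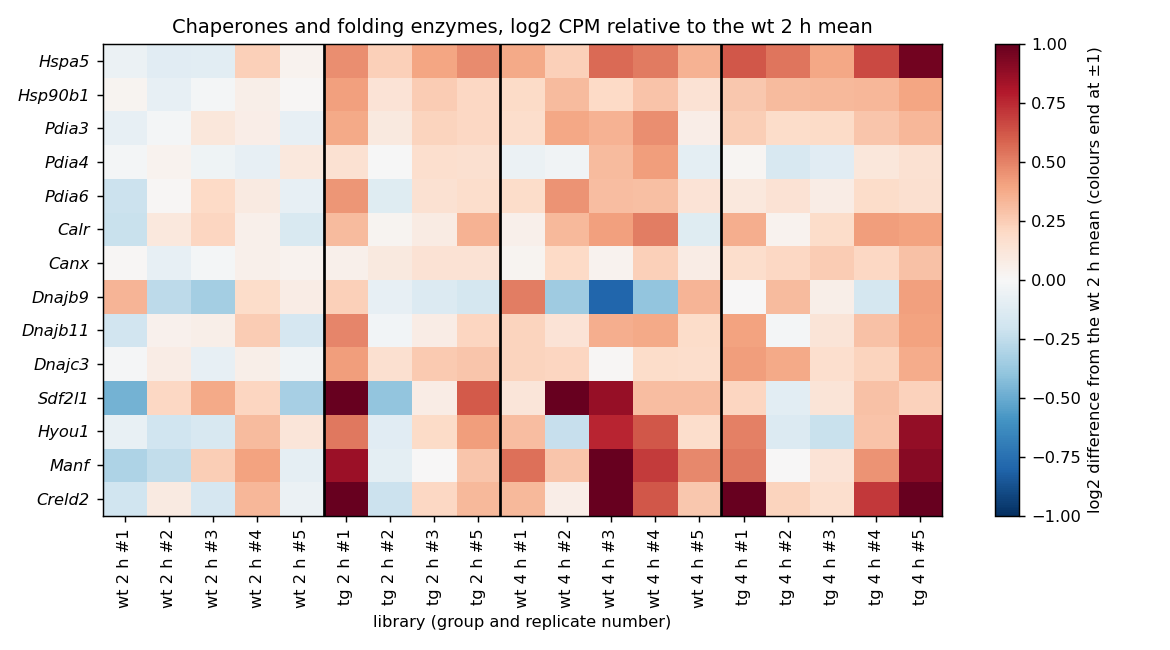
Heat map of the 14 chaperones and folding enzymes (rows) in the 19 libraries (columns), as log2 CPM minus the wt 2 h mean of each gene; the colour scale ends at -1 and 1. The wt 2 h libraries lie around 0 by construction, and the tg 2 h libraries differ among themselves, with replicate 1 highest.

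Per library, the mean log2 position of the 14 chaperones (each centred on its own mean over all libraries) ran from -0.30 to -0.04 in wt 2 h, from -0.21 to 0.30 in tg 2 h, from -0.02 to 0.22 in wt 4 h and from -0.06 to 0.31 in tg 4 h. The highest 2 h value, 0.30, belonged to tg replicate 1, the library with the lowest share of mitochondrial transcripts. The part of that library in the group's median was not tested. Within wt, 13 of the 14 were higher at 4 h than at 2 h, with a median of 0.26, beside 50.1% of all tested genes. Of the 14, 8 had an unadjusted p under 0.05, beside 5.98% of all tested genes, though none was called. Within tg the median was 0.06.

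In the integrated stress response, Atf4 mRNA, whose protein is mainly controlled in translation, measured 64.9 to 107 CPM over all 19 livers. Its log2 change was 0.18 ± 0.13 at 2 h and 0.16 ± 0.13 at 4 h, and neither passed. Ddit3 measured 2.21 to 5.35 CPM over all livers, with log2 changes of -0.47 ± 0.22 at 2 h (adjusted p = 0.396, edgeR) and 0.01 ± 0.20 at 4 h. Atf5, encoding a related transcription factor, had log2 changes of 0.26 and -0.06, without a call.

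Ppp1r15a encodes GADD34, which guides a phosphatase to eIF2 alpha and so reverses the block on translation. It measured 9.72, 9.56, 10.3, 10.7 and 9.60 CPM in wt and 19.4, 12.7, 13.1 and 16.3 CPM in tg at 2 h. Every tg liver lay above every wt liver, and replicate 1 was highest, with means of 9.97 ± 0.508 and 15.4 ± 3.15 CPM (SD). The log2 change was 0.62 ± 0.14 (adjusted p = 0.0181, edgeR), and the call was lost without tg 2 h replicate 1 (0.49, adjusted p = 0.0938), without tg 2 h replicate 5 (0.59, adjusted p = 0.0712) and without wt 2 h replicate 5 (0.61, adjusted p = 0.0505). At 4 h it measured 10.0 to 13.2 CPM in wt and 9.72 to 16.8 CPM in tg, with a log2 change of 0.12 ± 0.13.

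Trib3 encodes a pseudokinase that is induced by ATF4 and CHOP and restrains them in turn. It measured 12.3, 7.28, 29.5, 24.0 and 20.2 CPM in wt and 10.4, 8.88, 10.5 and 17.8 CPM in tg at 2 h, with overlapping groups and a log2 change of -0.65 ± 0.33 (adjusted p = 0.472, edgeR). At 4 h it measured 12.8, 20.4, 16.9, 20.8 and 20.3 CPM in wt and 7.51, 7.52, 3.89, 7.47 and 8.72 CPM in tg. Every tg liver then lay below every wt liver. Means were 18.2 ± 3.41 and 7.02 ± 1.83 CPM (SD). The log2 change at 4 h was -1.38 ± 0.31 (adjusted p = 0.00856, edgeR), and the call held without any 1 library.

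Asns encodes asparagine synthetase, a target of ATF4. It measured 2.45, 10.1, 11.7, 6.25 and 5.87 CPM in wt and 6.82, 7.99, 8.51 and 4.38 CPM in tg at 2 h. At 4 h it measured 2.06, 2.06, 6.37, 4.15 and 3.73 CPM in wt and 12.0, 3.29, 14.2, 16.0 and 12.8 CPM in tg. At 4 h, tg replicate 2 lay inside the wt range, and the other tg livers lay above it. The 4 h means were 3.67 ± 1.78 CPM in wt and 11.7 ± 4.93 CPM in tg (SD). The log2 change was -0.07 ± 0.45 at 2 h and 1.67 ± 0.43 at 4 h (adjusted p = 0.0184, edgeR). The 4 h call was lost without wt 4 h replicate 2 (1.52, adjusted p = 0.0530) and without the 3 libraries (1.44, adjusted p = 0.0677). Of the other amino acid and one-carbon genes, Chac1, which degrades glutathione, had log2 changes of 0.96 at 2 h and 0.20 at 4 h, without a call. Mthfd2 (-0.09 and 0.51), Aldh1l2 (-0.25 and 0.77) and Psat1 (-0.08 and 0.02) had mean levels under 1 CPM over all libraries and were not called.

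The direct test of whether the tg effect differed between durations called 0 of 35 genes, beside 0% of all tested genes. At an unadjusted p under 0.05 it held 6 of 35 (17.1%), beside 5.79% of all tested genes. These were Pdia3, Pdia6, Sdf2l1, Xbp1 and Ppp1r15a, whose log2 effect of tg was lower at 4 h than at 2 h, and Asns. For Asns the effect was higher at 4 h, by 1.74 ± 0.62 (adjusted p = 0.726 by edgeR). DESeq2 and limma-voom also called 0 of the 35. The pass of Xbp1, Trib3 and Asns at 4 h only is therefore not a shown difference between durations.

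Comparing 4 h with 2 h within a genotype, no gene of the 35 was called by edgeR in tg (0.913% of all tested genes were, 0.264% higher and 0.648% lower) or in wt (0% were). At an unadjusted p under 0.05 there were 4 of 35 in tg (12.1% of all tested genes) and 12 of 35 in wt (5.98% of all tested genes), 10 higher and 2 lower. In tg, Ern1 had a log2 change of -0.68 ± 0.16 (adjusted p = 0.0518, edgeR) and its groups did not overlap, and it was called without the 3 libraries. DESeq2 called 1 of the 35 in tg, lower at 4 h, and 0 in wt, and limma-voom called 0 in both. The start of the light differed between durations while the time of sampling did not, so longer light and its earlier start cannot be told apart.

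The groups of tg and wt livers did not overlap in CPM for 7 of 35 genes at 2 h (20.0%, beside 6% of all tested genes) and for 3 of 35 at 4 h (8.57%, beside 8.19%). At 2 h these were Hsp90b1, Canx, Dnajc3, Ern1, Herpud1, Edem1 and Ppp1r15a. At 4 h they were Ern1, Derl2 and Trib3. Between durations, the groups did not overlap for 4 of 35 genes in tg (Canx, Atf6, Ern1 and Trib3, 11.4%, beside 4.83%) and for 2 of 35 in wt (Hsp90b1 and Atf5, 5.71%, beside 0.712%). Among the 11 genes with an ERSE or ERSE-II, of which 8 encode chaperones, all 11 had positive log2 changes at 2 h (median 0.25), and 8 of 11 at 4 h (median 0.10). Positive changes were held by 68.6% of the 35 and 51.9% of all tested genes at 2 h. At 4 h these shares were 57.1% and 48.2%. Of the 14 chaperones and folding enzymes, which include those 8, 13 were positive at 2 h. From 2 h to 4 h within wt, without the driver, all 11 were positive as well (median 0.24), beside 50.1% of all tested genes. By edgeR, Herpud1 alone of the 11 was called at 2 h or at 4 h, and DESeq2 also called Hspa5, Hsp90b1 and Dnajc3 at 2 h.

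In the authors' deposited table for 2 h, Herpud1, Ppp1r15a, Hspa5 (adjusted p = 0.00587), Dnajc3 (0.0137) and Hsp90b1 (0.0480) were higher and Ern1 was lower at an adjusted p under 0.05. The authors' deposited table for 4 h held 3 of the genes higher and 4 lower, the same 7 as in the edgeR fit.

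Further genes of the same pathways were taken from lists chosen with earlier results of these data known, and their counts stand beside 2.16% of all tested genes called at 2 h and 11.4% at 4 h. Of 27 further genes of ER folding and import, none was called by edgeR at 2 h and 1 was lower at 4 h (Pdia5, log2 change -0.69). Of 18 of the degradation machinery, none was called at 2 h, and at 4 h the ubiquitin-conjugating enzymes Ube2g2 (0.74) and Ube2j1 (0.27) and Nploc4 (0.32), a cofactor of the p97 ATPase, were higher and Erlin1 (-0.57) was lower. Of 11 proteases, membrane factors and modulators, Bok was lower at 4 h (-0.59). Another 15 genes covered eIF2 subunits, eIF2 kinases, phosphatases, exchange factor subunits and related factors. Of these, the adaptor Nck1 was higher at 4 h (0.47).

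Of 29 genes further described as ATF4 or CHOP targets, 25 were tested. At 2 h 3 were higher and 1 lower, beside 2.16% of all tested genes called, with a median log2 change of 0.16, and at 4 h 6 were higher and 1 lower, beside 11.4%, with a median of 0.60. Higher at both durations were the transcription factor gene Cebpb (1.28 and 0.91), Ddit4 (3.14 and 3.65), which restrains mTORC1, and the amino acid transporter Slc38a2 (2.24 and 1.85). Sesn2 (0.77), a sensor protein for leucine, Gpt2 (0.75), an alanine transaminase, and the stress hormone Gdf15 (2.50) passed at 4 h. Bbc3, which encodes the cell death protein PUMA, was lower at both (-1.36 and -0.70). Of 20 cytosolic aminoacyl-tRNA synthetases, Aars (0.39) and Eprs (0.36) were higher at 4 h and none was called at 2 h. Of 14 cytosolic heat shock genes, Dnaja1 (0.62) and Bag3 (0.55) were higher at 4 h. A list of 10 genes, mitochondrial chaperones and proteases together with the cytosolic Hspa4, held no call at either duration.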

How the data were processed

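Whole-number counts for each gene and liver were deposited by the authors in 1 table. Their own comparison of tg with wt was deposited in 1 table per duration, with a log2 fold change, a p-value and an adjusted p-value for each gene, per the file headers. STAR, Salmon 1.4.0, DESeq2 1.30.0 and build GRCm38.p6 appear in the submitters' processing notes. The step from estimates to counts, and any use of strand in counting, are not given in the sources used here. The kit was stranded and poly-A selecting, per the labels' protocols. Of 14576 rows, 257 were blank in the 4 h libraries and were left out.

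Filtering (minimum count 10, minimum total 15), TMM scaling and the fit of 1 mean per group to all 19 libraries used edgeR 4.0.16 in R 4.3.3. The 6 contrasts were tested by its quasi-likelihood method at 0.05, with p-values adjusted over 12493 genes after Benjamini and Hochberg. The fit left 15 residual degrees of freedom, with a biological coefficient of variation of 0.183. No 2 libraries of a group agreed within sampling noise (chi-square per df of 21.2 or more in 36 pairs). The tests were checked on simulated counts. DESeq2 1.42.0, limma-voom (limma 3.58.1), other scalings and filters, and fits without each library were alternatives. Plots used matplotlib 3.10.9.

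The 36 genes, the gene lists and the cell markers were chosen with earlier results of these data known. All 36 genes are named, and of the further pathway lists those called at 2 h or 4 h. Each library was taken as 1 mouse, as the labels number them. Depth was 21474255 to 32721828 counts.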

Additional observations from a re-analysis of the deposited data

Results flagged for a closer look

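In 8 of 144 sets of 4 or 5 livers of 1 group, the highest or lowest liver stood apart from the others by Dixon's criterion, where chance alone would give about 1 in 20 sets, or 7.2. Derl1 measured 164 CPM in tg 2 h replicate 1 and 128 CPM in the next liver. Derl3 measured 1.99 CPM in wt 4 h replicate 3 and 0.495 CPM in the next. Mthfd2 measured 1.57 CPM in tg 4 h replicate 1 and 0.879 CPM in the next, and Phgdh 0.484 CPM in tg 4 h replicate 4 and 0.113 CPM in the next. The other 4 were lowest values. Dnajc3 measured 164 CPM in wt 4 h replicate 3, with 184 CPM in the next. Pdia4 measured 105 CPM in tg 2 h replicate 2, with 117 CPM in the next. Psat1 measured 0.276 CPM in wt 4 h replicate 4, with 0.495 CPM in the next, and Trib3 3.89 CPM in tg 4 h replicate 3, with 7.47 CPM in the next.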

How the results depend on the processing

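Ern1 within tg was called lower at 4 h (1 of the 35 genes) with upper-quartile scaling, with a filter of 1 CPM in 4 libraries, in DESeq2, in fits to only the groups compared, and without the 3 libraries together. With library totals as the scale, 2 of the 35 were higher in the mean effect and 195 of all genes were called within tg. DESeq2 called 5 of the 35 higher at 2 h, and of all genes 425 at 2 h, 6 for the difference between durations, 288 within tg and 1 within wt. The change of Ddit3 at 4 h turned to -0.021 (upper-quartile), -0.071 (library totals), -0.0049 (replicate block) and -0.045 (without the 3 libraries), and that of Asns at 2 h to 0.071 (limma-voom) and 0.054 (replicate block), none with a call. The cause was not tested.

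Replicate numbers shared by groups belong to different mice, so they were not taken to pair the livers. Deviations of same-numbered wt and tg livers from their group means correlated at -0.375 to 0.204. Differently numbered livers were not set beside them, so a batch shared by number was not tested. With the replicate block Hspa5 at 2 h was 0.42 with an adjusted p of 0.0456 (edgeR).

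Without each library in turn, the 35 genes gave 1 to 3 higher and 0 to 1 lower at 2 h (151 to 326 of all genes), 1 to 3 higher and 3 to 4 lower at 4 h (895 to 1887), and 4 to 7 higher and 3 to 4 lower in the mean (1405 to 2113). The difference between durations gave 0 of the 35 (0 to 3 of all), within tg 0 higher and 0 to 1 lower (20 to 164), and within wt 0 (0 to 1). The change of Asns at 2 h ran from -0.29 to 0.17 and that of Ddit3 at 4 h from -0.095 to 0.11. Levels under 1 CPM limit what could be seen for Derl3, Mthfd2, Psat1, Phgdh and Aldh1l2.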
